A study of Homo sapiens with 2 samples.

Results

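The genes CCL2, CCL7, CCL11, CCL8, CCL13 and CCL1 lie side by side on chromosome 17 and make up a cluster of CC chemokines. They were chosen by name, and with them every JUNB peak whose summit lay between 50 kb before the first and 50 kb after the last of these genes in the RefSeq GRCh38 annotation. That window ran from 34205285 to 34413233, a length of 208 kb. It held 3 of the 32550 peaks of the untreated library and 5 of the 25739 peaks of the etoposide library on chromosomes 1 to 22 and X.

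Chromatin binding of JUNB, which forms part of the transcription factor AP-1, was measured by CUT&RUN, in which an antibody directs a nuclease to a chromatin protein and the released DNA is sequenced. The cells were IMR-90, human fibroblasts, and the antibody was against JUNB in both libraries. There was 1 library of cells with no treatment and 1 of cells given etoposide, a drug that traps topoisomerase II on DNA and so breaks it. The dose, the time of treatment and the age of the cultures are not given in the sources used here. With 1 library per condition there was no spread between replicates, no test of the treatment was possible, and each difference below describes these libraries only. Peak lists hold no transcript levels, so neither the fibroblast identity of the cells nor the expression of the chemokines was checked.

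CC chemokines are small secreted proteins that draw leukocytes along a gradient by binding G protein-coupled receptors. CCL2, CCL7, CCL8 and CCL13 are the monocyte chemoattractant proteins, which act on monocytes through receptors that include CCR2. CCL11, or eotaxin, attracts eosinophils through CCR3, and CCL1 binds CCR8. Fibroblasts secrete CCL2 when exposed to inflammatory cytokines, and CCL2 is a common part of the factors secreted by senescent cells. AP-1 binds DNA as a dimer of JUN family proteins with one another or with FOS family proteins, most often at the sequence TGACTCA or TGAGTCA.

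The genes are short and leave most of the window empty. CCL2 lies at chr17:34255285-34257203, CCL7 at chr17:34270221-34272242 and CCL11 at chr17:34285742-34288334. CCL8 follows at chr17:34319435-34321402, CCL13 at chr17:34356480-34358610 and CCL1 at chr17:34360328-34363233. Their lengths ran from 1919 bp for CCL2 to 2906 bp for CCL1, and together they filled 6.51% of the window. The only other annotated gene there was LOC124903986, a long non-coding RNA at chr17:34406772-34412620.

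Of the 6 genes, 4 had an entry in the RefSeq promoter table (GRCh38.p14), CCL7, CCL8, CCL13 and CCL1. This is too few for a statement on promoters of the whole cluster, so they are described gene by gene. The last 60 bases before each gene start are shown because they hold the TATA sequence that CCL7, CCL8 and CCL13 have in common. Capitals mark TATAAAAG, a form of the TATA box that positions the transcription machinery, and TGANTCA, the AP-1 sequence with any middle base.
CCL7, chr17:34270161-34270220, plus strand: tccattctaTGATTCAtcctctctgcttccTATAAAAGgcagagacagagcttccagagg
CCL8, chr17:34319375-34319434, plus strand: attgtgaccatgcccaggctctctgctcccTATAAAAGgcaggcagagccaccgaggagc
CCL13, chr17:34356420-34356479, plus strand: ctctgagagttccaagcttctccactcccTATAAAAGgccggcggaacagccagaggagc
CCL1, chr17:34363234-34363293, minus strand: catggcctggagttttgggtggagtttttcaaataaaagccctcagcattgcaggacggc

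TATAAAAG began 30 bases before the start of CCL7 and of CCL8 and 31 bases before that of CCL13. CCL1 did not hold these exact letters in 250 bases. Its strip has AATAAAAG, which differs in the first letter alone, at close to the same distance from the start. Among 15812 protein-coding genes with a promoter in the table, 1.43% held TATAAAAG on either strand of the 250 bases. On the gene's own strand between 35 and 16 bases before the start, 0.778% did. The sequence and this stretch were chosen after these promoters had been seen, so the shares are a description and no test. The longest run shared by CCL7 and CCL8 was CCTATAAAAGGCAG, 14 bases, and that shared by CCL8 and CCL13 was CTCCCTATAAAAGGC, 15 bases. CCL7 and CCL13 shared a run elsewhere, GCTCAGCAGATT, 12 bases, which began 94 bases before the start of CCL7 and 123 before that of CCL13. The strips of CCL7 and CCL13 also share a run of this same length around the TATA sequence, so neither place holds their longest run alone. CCL1 shared runs of 7 to 10 bases with the other 3.

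TGACTCA or TGAGTCA, which are each other's reverse complement and were searched on both strands, was found in 0 of these 4 promoters and in 3.17% of all promoters of the same 250 bases. TGANTCA, which includes both, was found at CCL7 alone, as TGATTCA from 51 to 45 bases before the start, and in 5.05% of all promoters. The related sequence TGACGTCA was in none of the 4 and in 2.32% of all. A match or its absence describes these letters in this window and says nothing of binding elsewhere. The 250 bases before CCL7, the gene of these 4 with a peak nearest to it in the etoposide library, are given whole.
CCL7, chr17:34269971-34270220, plus strand: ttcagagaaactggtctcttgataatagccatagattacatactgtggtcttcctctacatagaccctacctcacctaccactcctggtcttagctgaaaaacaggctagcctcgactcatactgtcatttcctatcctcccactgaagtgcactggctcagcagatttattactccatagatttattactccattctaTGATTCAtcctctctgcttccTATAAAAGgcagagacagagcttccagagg

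No listed peak overlapped any of these 4 promoters in either library. From the start of CCL7 the nearest summit was 17.3 kb upstream in the untreated and 5.68 kb downstream in the etoposide library. For CCL8 the nearest were 13.0 kb and 18.9 kb upstream. The starts of CCL13 and CCL1 were farther from a summit. For CCL13 the nearest etoposide summit was 30.6 kb downstream, and for CCL1 the nearest were 56.8 kb downstream in the untreated list and 23.9 kb upstream in the etoposide list.

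JUNB peaks stood between the genes, with no summit inside any of the 6. The plot of the window shows them grouped before CCL2, between CCL11 and CCL8 and, in the etoposide library, after CCL7 and after CCL1. Strength is given as fragments at the summit, the count of sequenced fragments piled up there, solved from each peak's deposited fold and p. Its 95% exact Poisson interval covers counting error only. Before and after refer to rising coordinates, whichever strand a gene is on.

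**Figure D1:**
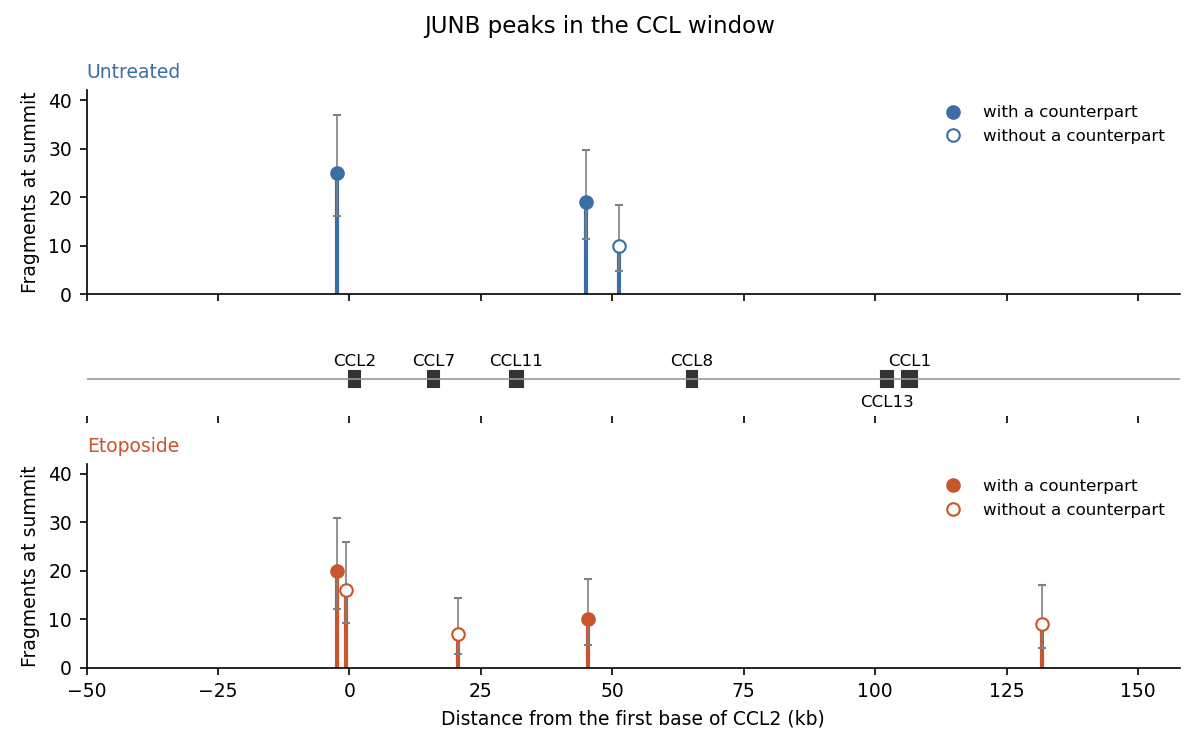
Fragments at the summit of each listed peak (y axis, count) against distance from the first base of CCL2 (x axis, kb), in the untreated library above and the etoposide library below. Vertical lines are 95% exact Poisson intervals, filled points have a counterpart in the other list and open points have none, and black boxes are genes to scale. Peaks before CCL2 and between CCL11 and CCL8 appear in both panels, and 3 of the 5 etoposide peaks are open.

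CCL2 had the peak with the most fragments of the window in both libraries, at the same place on its lower-coordinate side. By the authors' -log10 q this peak was first of the window in the etoposide list, and in the untreated list it came after the one between CCL11 and CCL8. In the untreated library it lay at chr17:34252825-34253038, its summit 2.35 kb from CCL2, with 25 fragments (16.2 to 36.9). In the etoposide library it lay at chr17:34252761-34253274, 2.40 kb from the gene, with 20 fragments (12.2 to 30.9). The summits were 50 bp apart, and the untreated peak of 214 bp lay wholly within the etoposide peak of 514 bp.

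The etoposide library had 0.836 times the estimated depth of the untreated library. Once this was allowed for, the CCL2 peak had a like number of fragments in both. Scaled for depth, the ratio of etoposide to untreated fragments was 0.957, with a 95% interval from counting alone of 0.504 to 1.80. That interval takes in both a loss and a gain of more than 1.5 times. The peak stood at rank 12193 of its list in the untreated library and at rank 7366 in the etoposide library, by the authors' -log10 q of 10.2 and 10.5. These ranks come from lists of different lengths and show no change by themselves.

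CCL2 had a further peak in the etoposide library, nearer to the gene. It lay at chr17:34254438-34254692, with its summit 0.726 kb before the first base of CCL2, and had 16 fragments (9.15 to 26.0) and rank 14877. The untreated list had no peak there. Of the 1153 etoposide peaks with 16 fragments, 78.8% had an untreated counterpart. This was the only summit within 1 kb of any of the 6 genes in either library. Of all protein-coding genes, 39.5% had one in the untreated and 30.3% in the etoposide list. Those shares include summits inside long genes, and genes as short as the 6 were not counted apart at this distance.

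Local background, the fragment level the peak caller expected at a place, was higher before CCL2 than at the other peaks of the window. It was 3.68 fragments at the untreated peak and 2.04 and 1.95 at the etoposide peaks, where the medians of the whole lists were 1.27 and 0.907. At the other 5 peaks it ran from 0.377 to 1.43. Scaled for depth, the untreated background was 1.51 times the etoposide one at the shared peak before CCL2. At the shared peak between CCL11 and CCL8 it was 1.81 times. The part of this background in the listing of peaks before CCL2 was not tested.

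CCL7 and CCL11 had a summit within 10 kb in the etoposide library alone, and it was the same peak. It lay at chr17:34275680-34276054, 3.66 kb after CCL7 and 9.84 kb before CCL11. With 7 fragments (2.81 to 14.4) it was the weakest of the window and ranked 21096 of 25739. Its local background of 0.377 was the lowest of the etoposide list, where peaks were listed from 5 fragments up. Of the 1202 etoposide peaks with 7 fragments, 30.4% had an untreated counterpart.

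Between CCL11 and CCL8 both libraries had a peak, and the untreated library had a second one. The shared peak had 19 fragments (11.4 to 29.7) at chr17:34300159-34300740 in the untreated library, 12.0 kb after CCL11, with a -log10 q of 12.4 and rank 8610. Its etoposide counterpart at chr17:34300181-34300632 had 10 fragments (4.80 to 18.4), 12.2 kb after CCL11. Scaled for depth the ratio of etoposide to untreated fragments was 0.630, and its interval from counting alone, 0.262 to 1.42, included no change. The summits were 229 bp apart although the etoposide peak lay wholly inside the untreated one.

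The second untreated peak there was the nearest listed summit to CCL8. It lay at chr17:34306318-34306572, 13.0 kb before the gene, with 10 fragments (4.80 to 18.4) and rank 18518. The etoposide list had no peak there, and of the 2208 untreated peaks with 10 fragments 29.1% had an etoposide counterpart. CCL8 had no summit within 10 kb in either library.

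CCL13 and CCL1 also had no summit within 10 kb in either library. The nearest etoposide peak, at chr17:34387049-34387237, was 23.9 kb after CCL1 and 19.7 kb from LOC124903986, and had 9 fragments (4.12 to 17.1) and rank 13514. It had no untreated counterpart. Its width of 189 bp was the smallest of the etoposide list and its local background of 0.378 was close to the lowest.

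**Figure D2:**
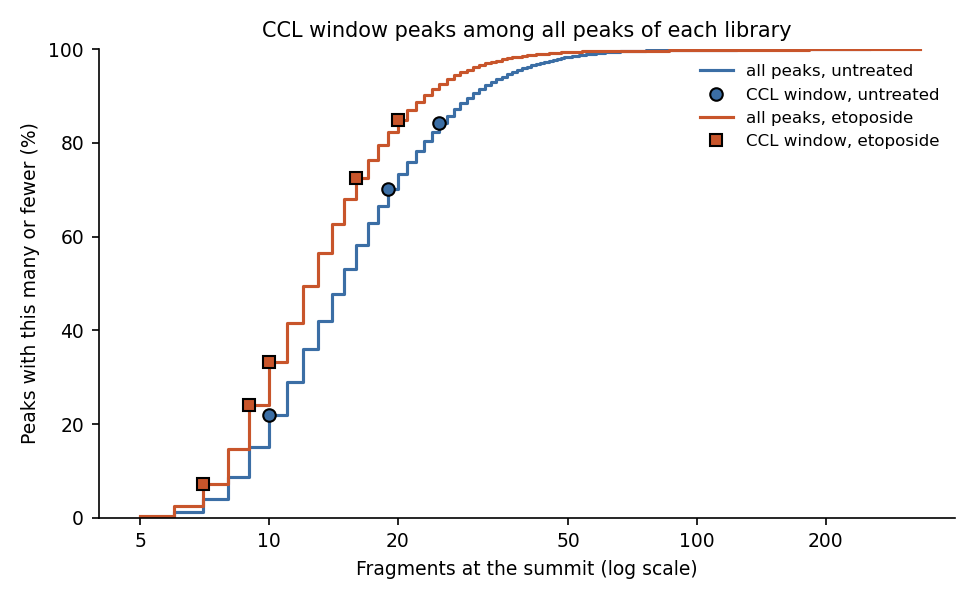
Share of all peaks of a library with a given number of fragments at the summit or fewer (y axis, percent) against that number (x axis, log scale), as lines for the untreated and etoposide libraries. Points are the CCL window peaks, which reach 25 fragments in the untreated and 20 in the etoposide list, far below the highest values of both lists.

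Set among all peaks, those of the cluster ran from near the weakest to above the upper quartile, as the plot of fragments over all peaks shows. That quartile was 21 fragments in the untreated and 17 in the etoposide list. The highest values of the lists were 252 and 332, far above any peak of the cluster. In the untreated library 84.2% of peaks had 25 fragments or fewer and 21.9% had 10 or fewer. In the etoposide library 84.8% had 20 or fewer and 7.28% had 7 or fewer. The median over whole lists was 15 untreated and 13 etoposide fragments, and the cluster's medians were 19 and 10.

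Counted by gene, 1 of the 6 genes had a summit within 10 kb in the untreated library, against 49.6% of the 19974 protein-coding genes. In the etoposide library 3 of 6 did, against 38.9%. CCL2 had a summit in both libraries, where 34.3% of genes did, and CCL7 and CCL11 in the etoposide library alone, where 4.61% did. CCL8, CCL13 and CCL1, 3 of 6, had none in either, where 45.8% did. CCL7 and CCL11 both rest on the 1 weak peak between them, so they are not separate observations.

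Long genes hold more summits, so the short genes of the genome were taken as a further background after the data had been seen. Among 1906 protein-coding genes of at most 3 kb, 20.8% had an untreated and 13.7% an etoposide summit within 10 kb, and 3.25% had one in the etoposide library alone. The median distance from the 6 genes to the nearest summit was 15.1 kb in the untreated and 14.4 kb in the etoposide list. Over all protein-coding genes, long and short, it was 10.4 and 24.9 kb.

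Of the window's peaks, 2 of 3 in the untreated list had a counterpart in the etoposide list, against 51.0% over the whole list. In the other direction 2 of 5 did, against 64.8%. Which peaks count as shared depended on the criterion. The peak before CCL2 was the one kept when summits had to lie within 100 bp, and the peak between CCL11 and CCL8 the one kept when at least 50% of both peaks had to overlap.

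The etoposide library listed more peaks in the window than the untreated library, the opposite of the genome as a whole. Over 9341 stretches of the same length with at least 1 summit in either list, etoposide summits outnumbered untreated ones in 22.5%. The counts are small: 3 summits are 14.4 per Mb with a 95% exact Poisson interval of 2.98 to 42.2, and 5 are 24.0 per Mb (7.81 to 56.1). These wide intervals overlap, which is no test of a difference. In each list 2 of the peaks are shared with the other, so the counts are not independent either. Chromosome 17 had 14.3 untreated and 10.2 etoposide summits per Mb, and chromosomes 1 to 22 and X together 10.7 and 8.50.

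The cluster's peaks were an island in a stretch with no others. The nearest summit before CCL2 outside the window was 328 kb away in the untreated and 971 kb away in the etoposide list. After CCL1 the nearest were 660 and 700 kb away. Widening the margin from 50 to 100 kb therefore added no peak. Of 14555 stretches of the window's length across the genome, 36.1% held at least 3 untreated summits and 12.4% at least 5 etoposide summits. Only 9341 of them held a summit in either list, and the median was 1 summit in each list. Gaps as long as those around the cluster were not counted over the genome, so they are not called unusual.

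**Figure D3:**
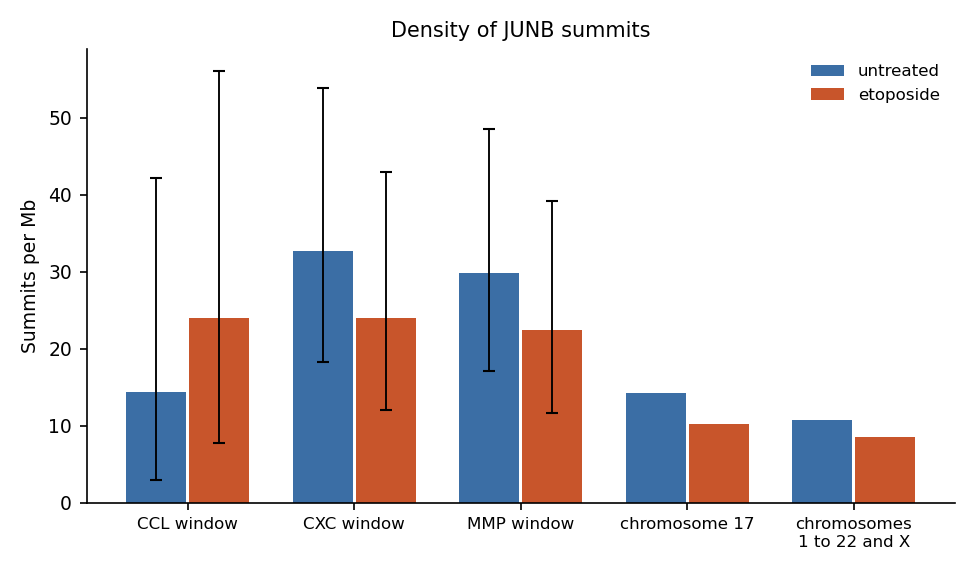
Summits per Mb (y axis) in the CCL, CXC and MMP windows, on chromosome 17 and on chromosomes 1 to 22 and X (x axis), for the untreated and etoposide libraries. Bars are counts divided by length, and lines on the windows are 95% exact Poisson intervals for counting error. In the CCL window the etoposide bar, 24.0, is above the untreated bar, 14.4, and in the other 4 regions it is below.

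The plot of summit density sets the cluster beside a pair of other clusters of secreted factors, drawn with the same margins. The CXC chemokine genes on chromosome 4, several of whose products attract neutrophils, had 15 untreated and 11 etoposide summits in 459 kb. The matrix metalloproteinase genes on chromosome 11, whose products cut extracellular matrix, had 16 and 12 in 535 kb. By -log10 q the best-ranked untreated peak of the CCL window, between CCL11 and CCL8, stood at 8610. The best-ranked etoposide peak, before CCL2, stood at 7366. The CXC window reached ranks 228 and 262 and the MMP window ranks 491 and 77. Those windows held more peaks, and the best of more peaks tends to rank higher. Median fragments were 19 untreated and 10 etoposide in the CCL window. They were 16 and 14 in the CXC window and 15 and 14 in the MMP window.

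Gene counts of these clusters are given beside the 1 of 6 untreated and 3 of 6 etoposide CCL genes, and no test of a difference was possible. Of 9 CXC genes, 8 had a summit within 10 kb in the untreated and 5 in the etoposide list, and 0 in the etoposide library alone. Of 9 metalloproteinase genes, 8 and 6 did, again with 0 in the etoposide library alone. The shares of all protein-coding genes were 49.6% untreated, 38.9% etoposide and 4.61% in the etoposide library alone. A count of 0 of 9 is near that last share, and CCL7 and CCL11 rest on 1 peak, so no contrast is drawn from it. Intervals of summit density overlapped among all 3 windows in both libraries.

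The rest of the CC chemokine family was mostly far from a listed summit. Of 18 other ligand genes, 2 had a summit within 10 kb in the untreated and 3 in the etoposide list, and 15 had none in either. Over all protein-coding genes the shares were 49.6%, 38.9% and 45.8%, and among those of at most 3 kb 20.8% had an untreated and 13.7% an etoposide summit. The median distance of these ligand genes to the nearest summit was 171 kb untreated and 114 kb etoposide, against 10.4 and 24.9 kb over all protein-coding genes. Several of them share a cluster farther along chromosome 17, so their distances are not independent.

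CCL20, which attracts cells that carry CCR6, had the strongest peak within 10 kb of any CC ligand gene measured here. Its summit lay 0.617 kb from the gene in the untreated library, at chr2:227818022-227818807, with 61 fragments (46.7 to 78.4) and rank 172. In the etoposide library the same place was listed as a pair of peaks. The nearer had 37 fragments (26.1 to 51.0) and rank 388, and the farther 19 fragments (11.4 to 29.7). Within the untreated list, the CCL window peak with the most fragments had 25 against 61 at CCL20. Within the etoposide list it had 20 against 37 and 19.

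CCL26, an eotaxin like CCL11, had summits inside the gene in both libraries but at different places. The untreated peak had 14 fragments (7.65 to 23.5) and the etoposide peaks 12 (6.20 to 21.0) and 9 (4.12 to 17.1), and none had a counterpart. CCL5, which attracts T cells and monocytes, had an etoposide peak 5.40 kb away with 11 fragments (5.49 to 19.7) and no counterpart, which lay inside the neighbouring gene HEATR9.

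Of 12 receptor genes, 3 had a summit within 10 kb in the untreated and 2 in the etoposide list, against 49.6% and 38.9% of all protein-coding genes. ACKR4, a decoy receptor that removes chemokines, had a summit in both, and these lay inside the overlapping gene ACAD11. The untreated peak there had 23 fragments (14.6 to 34.5), and the etoposide peaks had 9 (4.12 to 17.1) and 7 (2.81 to 14.4). CCR7, the receptor of CCL19 and CCL21, had an untreated peak of 16 fragments (9.15 to 26.0) alone, and CCR9, the receptor of CCL25, one of 10 (4.80 to 18.4) that also lay inside LZTFL1. CCR4, a receptor of CCL17 and CCL22, had an etoposide peak of 9 fragments (4.12 to 17.1) alone.

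The main receptors of the cluster's own ligands, CCR2, CCR3 and CCR8, had no summit within 10 kb in either library. The same held for 45.8% of all protein-coding genes. CCR2 and CCR3 lie close together on chromosome 3, so they are not independent. The nearest to CCR2 was 135 kb away in the untreated and 25.5 kb away in the etoposide list. The nearest to CCR3 was 83.2 and 120 kb away, and the nearest to CCR8 50.1 and 74.7 kb. The plot of nearest summits shows the ligands and receptors together.

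**Figure D4:**
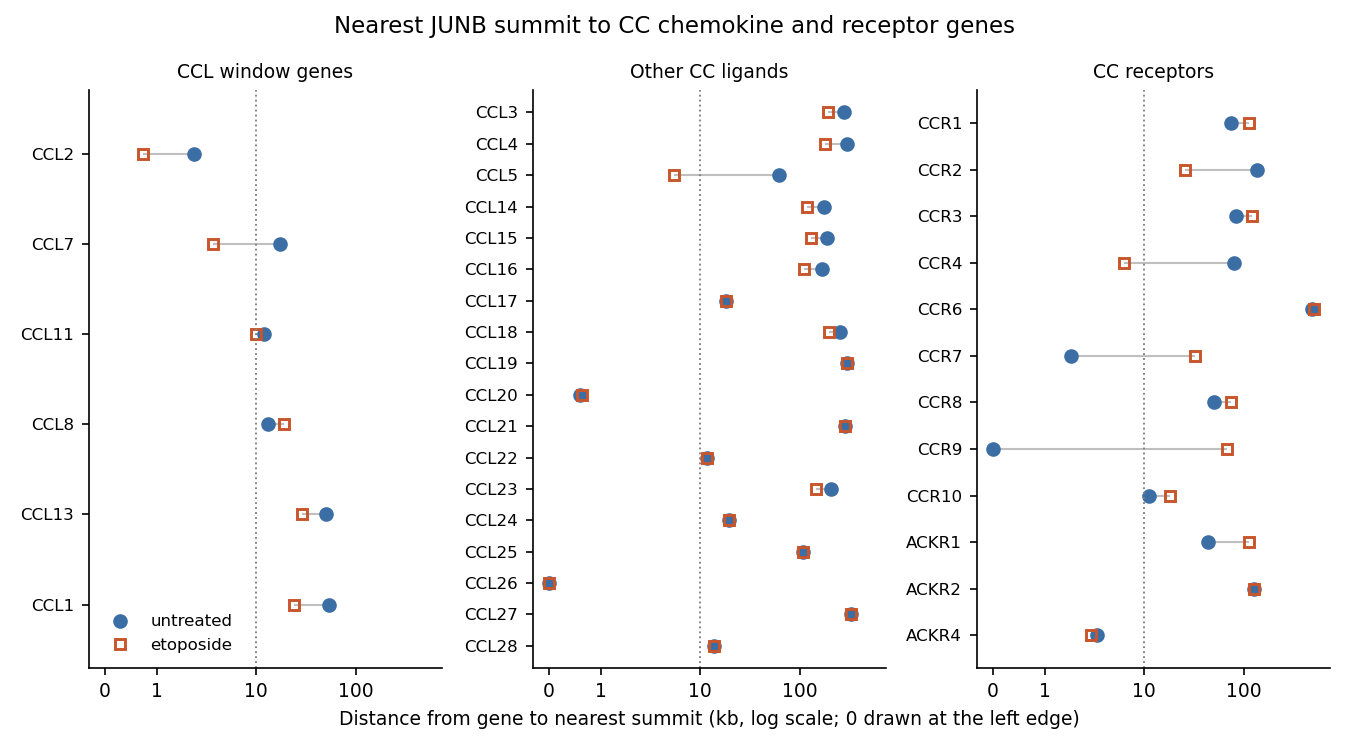
Distance from each gene to the nearest JUNB summit (x axis, kb, log scale, with 0 drawn at the left edge) for the 6 CCL window genes, 18 other CC ligands and 12 receptors (y axis). Filled circles are the untreated and open squares the etoposide library, grey lines join the values of a gene, and the dotted line marks 10 kb. Only CCL2 of the window genes is left of the line in both libraries, and CCL7 and CCL11 cross it in the etoposide library.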

How the data were processed

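The data were the authors' deposited narrowPeak lists, 1 per library. Bowtie2, MACS2 and the builds mm10 and hg38 are named, per the submitters' processing notes, without versions or settings. The 1594 untreated and 1167 etoposide peaks on chromosomes 20 to 22, which the mouse lacks, place the lists on the human build. No control library was used here. The deposited fold is the ratio of summit signal to local background, the deposited -log10 p and -log10 q belong to the summit, and the deposited score is derived from -log10 q. These are the authors' values, used only within a list.

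Fragments at the summit, k, on a background b were solved from fold = (k + 1)/(b + 1) and a Poisson tail. They came out whole for 100% of peaks within 0.001 of the deposited -log10 p, and the method was tested on simulated data. Relative depth (0.836) is the ratio of lowest backgrounds (0.377 to 0.482) over that of smallest widths (189 to 202 bp), both assumptions about the caller. The library's total reads are unknown. Counterparts shared at least 1 bp. Ratios of fragments have exact binomial intervals at 95%. Density used the span of annotated genes.

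Genes came from RefSeq GRCh38.p14, with Python 3.11.15, pandas 2.3.3 and scipy 1.17.1. The named genes were the 6 members, genes nearest to window peaks, and every other CC ligand or receptor with a summit within 10 kb. A receptor of the planned list is not reported here. Members and lists were chosen with earlier results of these data known. AP-1 sites in peak sequence were planned and not run, as no genome was used here.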

Additional observations from a re-analysis of the deposited data

How the results depend on the processing

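Of 52 alternative values, 30 stayed within 1.5 times of the reported one, 22 moved beyond that and 0 reversed. Some that moved are still within counting error of small counts. The motif TGANTCA, the other motifs, the stretch searched for TATAAAAG and the short-gene background were chosen after seeing the data. With the 10000 strongest peaks per library the window kept 1 untreated and 1 etoposide summit, with 0 counterparts in either list. In that setting 0 of the 6 genes had an untreated and 1 an etoposide summit within 10 kb, with 1 other ligand in the untreated library and 1 receptor in the untreated and 0 in the etoposide list. Counterparts fell to 1 in each list with 50% overlap of both peaks and to 1 with summits within 100 bp. Within 50 kb of a gene, 4 of the 6 genes had an untreated and 6 an etoposide summit, as did 6 and 7 other ligands and 5 and 5 receptors. Etoposide receptors fell to 1 within 5 kb and to 1 at a -log10 q of at least 5. TGANTCA was found in 1 member promoter in place of 0. Bringing etoposide fragments to the untreated depth gave 23.9 and 19.1 before CCL2, 8.38 after CCL7, 12.0 between CCL11 and CCL8 and 10.8 after CCL1. Fewer genes or peaks enter the stricter settings by construction. The lists show no signal below the caller's threshold, so a missing peak is not missing binding. No paired analysis was possible because each condition had 1 library.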
